A study of Homo sapiens with 6 samples.

Results

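The genes described here are 34 chaperones, folding enzymes, stress sensors and degradation factors of the endoplasmic reticulum (ER), the compartment in which secreted and membrane proteins fold. They were taken by symbol from a fixed list, and all 34 were found among the 58735 genes of the deposited count table. The 6 RNA libraries come from human ovarian carcinoma cells labelled as stable and as 48 h: 3 control libraries, and 3 from cells made to express BARD1, which pairs with BRCA1 to form a ubiquitin ligase. BARD1 was delivered by lentivirus, and the protocol mentions microscopy of GFP-BARD1 at 48 h as transient expression. The labels name the line OVCAR8ip1 in titles and growth protocol but SKOV3ip1 and SKOV3ip1 tumors in the cell line and tissue fields, so both the line and the kind of material are in conflict. The labels do not say whether the control cells carried an empty vector or how many clones the BARD1-expressing cells came from. The series asks how BARD1 acts on pathways of tumour angiogenesis, and the comparison below shows what happened to ER folding genes in the same cells.

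Unfolded proteins in the ER are sensed by the membrane proteins IRE1 (gene ERN1), PERK (gene EIF2AK3) and ATF6. IRE1 splices XBP1 mRNA so that it encodes an active transcription factor, ATF6 is cut in the Golgi to release another, and PERK slows protein synthesis and favours translation of ATF4. The factors raise chaperones, disulfide enzymes and the machinery that sends misfolded proteins to the proteasome. Secretory cells use the same genes to enlarge the ER. Gene counts do not separate spliced from unspliced XBP1 and do not report cleavage of ATF6 or activity of PERK.

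Many of these genes are known to carry the ER stress response element (ERSE) in their promoters, where NF-Y binds CCAAT and ATF6 or XBP1 binds CCACG. The element was searched as CCAAT, any 9 bases and CCACG on both strands in RefSeq promoters (GRCh38.p14, from 250 bases before to 50 bases after each start). It was found in 8 of the 31 members with a promoter in that collection (25.8%), against 25 of 27305 genes (0.0916%) and 27 of 35116 promoters (0.0769%) in all. Each of the sequences below is shown 5′ to 3′ on the strand of its gene because it is the shared sequence by which these genes are known to respond together, with the CCAAT and CCACG parts in capitals (ATTGG and CGTGG where the element lies on the opposite strand).
HSPA5, chr9:125241386-125241414, minus strand: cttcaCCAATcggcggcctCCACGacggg
XBP1, chr22:28800598-28800626, minus strand: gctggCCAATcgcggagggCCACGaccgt
ERO1B, chr1:236282178-236282206, minus strand: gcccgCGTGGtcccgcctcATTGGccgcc
PDIA6, chr2:10812848-10812876, minus strand: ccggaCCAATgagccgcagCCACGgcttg
HSP90B1, first site, chr12:103930211-103930239, plus strand: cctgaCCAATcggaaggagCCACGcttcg
HSP90B1, second site, chr12:103930316-103930344, plus strand: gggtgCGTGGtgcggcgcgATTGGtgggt
CANX, chr5:179698773-179698801, plus strand: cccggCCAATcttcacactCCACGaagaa
CALR, chr19:12938379-12938407, plus strand: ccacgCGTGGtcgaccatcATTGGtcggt
CRELD2, chr22:49918549-49918577, plus strand: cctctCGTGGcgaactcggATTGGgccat

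The variant known as ERSE-II, searched on both strands as ATTGG, any base and CCACG after the first search had been seen, was found in 3 members (9.68%), against 0.0696% of genes. Their 4 sites are shown because no exact match of the longer element was found in the searched promoters of these members.
HERPUD1, chr16:56932020-56932040, plus strand: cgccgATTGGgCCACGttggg
HYOU1, nearer the start, chr11:119057269-119057289, minus strand: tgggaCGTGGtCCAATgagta
HYOU1, farther from the start, chr11:119057375-119057395, minus strand: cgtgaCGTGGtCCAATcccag
SDF2L1, chr22:21642109-21642129, plus strand: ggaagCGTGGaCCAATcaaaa
The unfolded protein response element, searched on both strands as TGACGTGG, was found in 1 member, HYOU1, where it overlaps the ERSE-II farther from the start, and in 0.927% of genes.

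The 250 bases before the start of HSPA5 (chr9:125241344-125241593, minus strand, 62.0% G or C) are shown whole because HSPA5 encodes BiP, the chaperone whose promoter is the standard reporter of ER stress. CCAAT occurs 4 times in it on either strand and CCACG once. The capitals mark the only exact match of the searched ERSE, at bases -66 to -48 from the start. Sequences with mismatches were not searched, here or in the other promoters.
HSPA5 promoter: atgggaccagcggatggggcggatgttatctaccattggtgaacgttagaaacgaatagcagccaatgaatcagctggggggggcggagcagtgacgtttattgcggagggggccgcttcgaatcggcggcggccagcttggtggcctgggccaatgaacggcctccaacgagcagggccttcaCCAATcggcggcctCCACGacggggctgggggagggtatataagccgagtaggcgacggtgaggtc

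Libraries held 21819199 to 23992482 counted reads in control cells and 12744310 to 24349158 in BARD1-expressing cells. Levels are in CPM (counts per 1000000 reads, with TMM scaling, the trimmed mean of M values), differences are log2 fold changes of BARD1-expressing over control cells with standard errors (SE), and a gene is called at a Benjamini-Hochberg adjusted p under 0.05 in edgeR's quasi-likelihood test over 15400 genes. BARD1 itself rose from 17.9 ± 1.30 to 46.3 ± 2.43 CPM (SD, n = 3 each, edgeR adjusted p = 4.67e-12). Mitochondrial transcripts took 1.90% to 2.40% of counts in control libraries and 0.965% to 1.31% in BARD1-expressing libraries, and their part in the results was not tested. Of markers of other cells, 3 of 8 endothelial markers could be tested, all 3 were higher, and the summed level of the 8 was 28.7 to 33.5 CPM in control and 41.0 to 54.8 CPM in BARD1-expressing libraries, with EGFL7 the most abundant and CDH5 at 0 or 1 read in each library. The 8 leukocyte markers summed to 0.702 to 1.49 CPM over the 6 libraries, with CD3E and MS4A1 at 0 in each. Plasma cell markers summed to 110 to 134 CPM, of which SDC1, also an epithelial gene, gave nearly all, while JCHAIN and POU2AF1 were at 0 in each library. Fibroblast and pericyte markers summed to 1015 to 1083 CPM in control and 840 to 887 CPM in BARD1-expressing libraries through COL1A1, with 2 of 4 tested markers higher, 1 lower and DCN at 0 in each library. Of 9 epithelial and ovarian carcinoma markers 3 were higher and 1 lower of 8 tested, and KRT19 was at 0 in each library. Their part in the results was not tested, and in bulk RNA fewer cells of a type and less RNA per cell cannot be told apart.

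ER folding genes differed little between BARD1-expressing and control cells. Those that rose were spread over 5 of the 6 roles, with 2 of 4 genes of the sensors and their factor XBP1, 2 of 8 Hsp70 and Hsp90 genes, none of 4 lectin cycle genes, 1 of 7 disulfide genes, 2 of 9 degradation genes and 1 of 2 others. All 34 had enough counts to be tested, 8 rose (23.5%, against 16.5% of all tested genes), 1 fell (2.94%, against 12.4%) and 25 were not called. In all, 26.5% of these genes were called, a share near the background of 29.0%. The 8 that rose were EDEM1, ERO1B, XBP1, SEL1L, WFS1, ERN1, MANF and HSPA5, and the one that fell was ERO1A. All 34 log2 fold changes lay within 0.5 of 0, as did 82.6% of those of all tested genes. The median log2 fold change was 0.05 (-0.00 over all tested genes) and the median absolute one 0.10 (0.18 over all tested genes). The number that rose was 4 without control 1 and 5 without control 2, and 6 in each alternative setting that kept all 6 libraries. The 4 without control 1 were EDEM1, XBP1, SEL1L and PDIA5, of which PDIA5 was not among the 8. EDEM1, XBP1, SEL1L and ERO1A were called in 12 of 12 alternatives, whereas HSPA5 and ERN1 were called in 2 of 12.

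**Figure D1:**
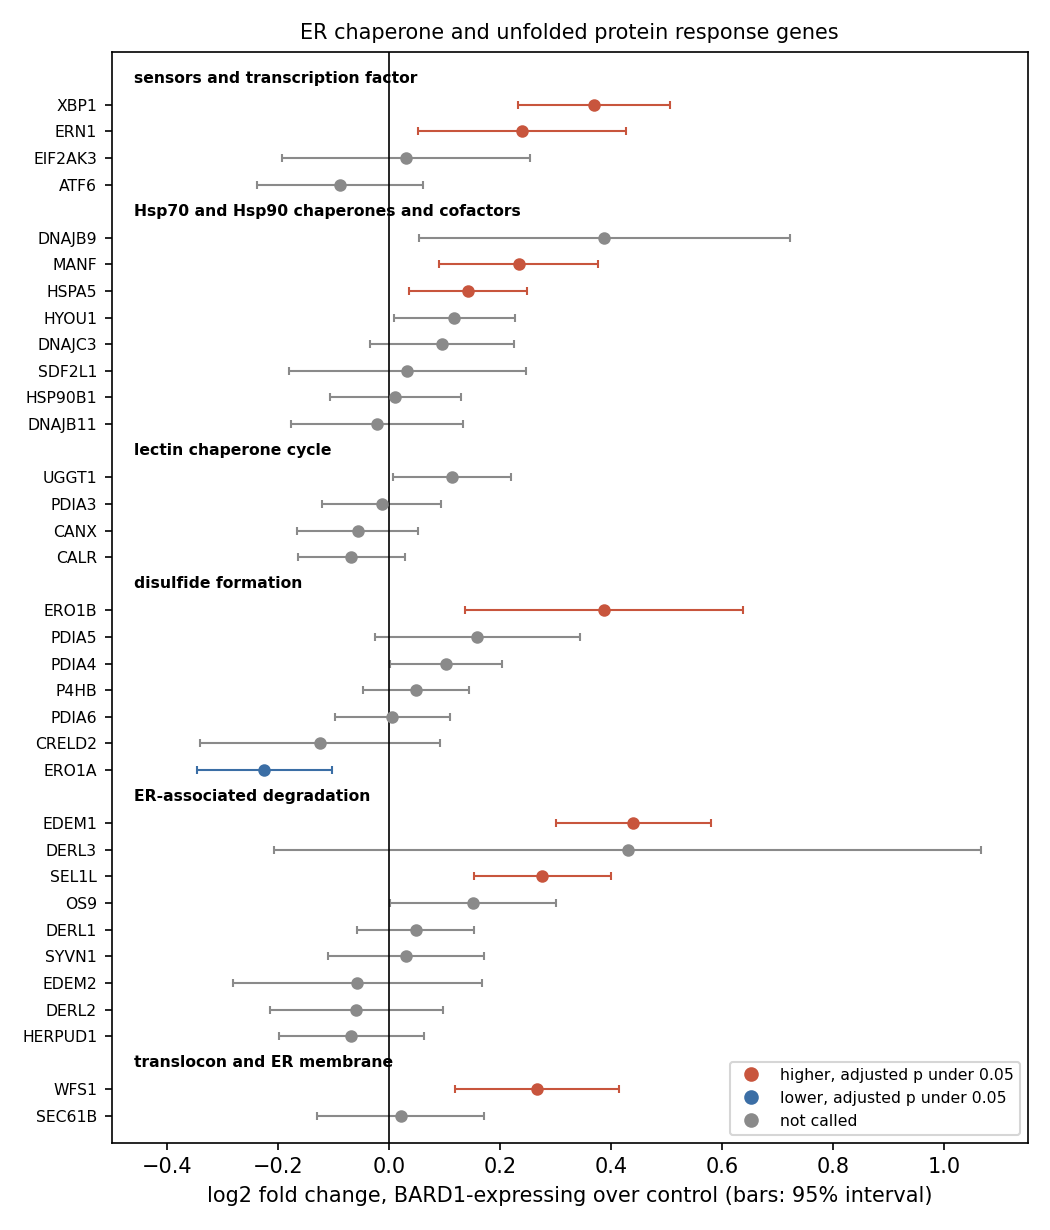
Log2 fold change of each gene, BARD1-expressing over control (horizontal axis), grouped by role, with points for the edgeR estimates and bars for their 95% intervals; red marks the 8 called higher, blue the 1 called lower and grey the 25 not called. Estimates run from -0.22 for ERO1A to 0.44 for EDEM1, and the abundant chaperones sit close to 0.

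In each of the 9 called genes the 3 BARD1-expressing libraries lay outside the range of the 3 control libraries. This was so for 16 of the 34 genes, 14 with the BARD1-expressing libraries above and 2 below, while the groups did not overlap at 40.9% of all tested genes (21.7% above and 19.2% below). For each of the 16, called or not, p was 0.1 in a two-sided exact permutation test on log2 CPM, the smallest p that 3 against 3 libraries allow. This p follows from the lack of overlap and adds nothing to it. None of the 34 genes lies on chromosome 18, 10 or X, and 1, CANX, lies on chromosome 5.

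**Figure D2:**
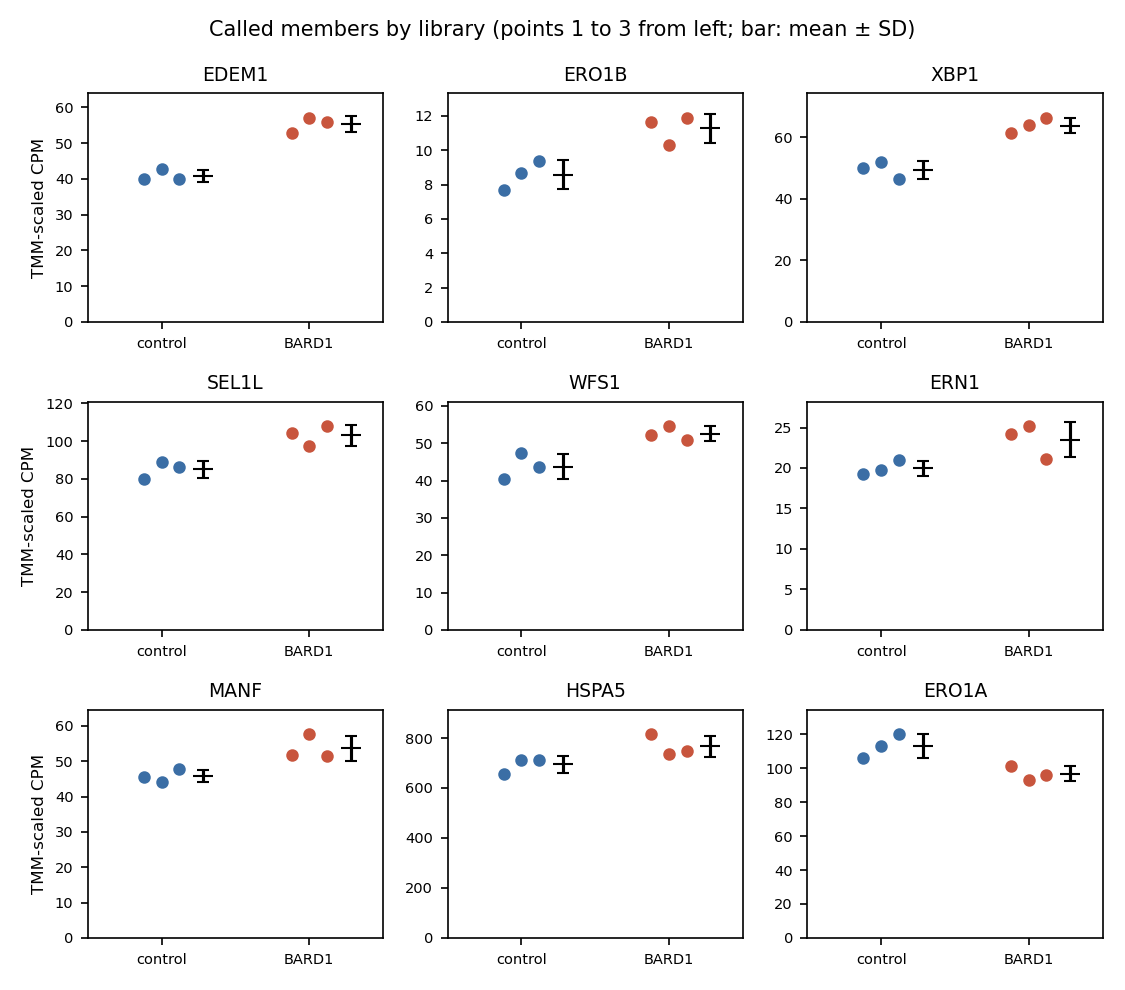
Level (TMM-scaled CPM, vertical axis from 0) of the 9 called genes in control libraries 1 to 3 (blue) and BARD1-expressing libraries 1 to 3 (red), with the mean and SD as a bar beside each group. EDEM1 goes from 40.8 to 55.2 CPM and XBP1 from 49.4 to 63.7 CPM without overlap, and ERO1A from 113 down to 96.8 CPM.

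Among the sensors and their factor, XBP1 and ERN1 rose and ATF6 and EIF2AK3 were not called. XBP1 (ENSG00000100219, chromosome 22, 28794555 to 28800597, GRCh38) was at 49.96, 51.8 and 46.3 CPM in control libraries 1 to 3 and 61.2, 63.8 and 66.2 CPM in BARD1-expressing libraries 1 to 3. The lowest BARD1-expressing library thus stood above the highest control. XBP1 had a log2 fold change of 0.37 ± 0.066 (edgeR adjusted p = 0.000143), a 1.29-fold difference.

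ERN1 (ENSG00000178607, chromosome 17, 64039142 to 64130819), which encodes the kinase and ribonuclease that splices XBP1 mRNA, was at 19.2, 19.7 and 21.0 CPM in control and 24.2, 25.2 and 21.1 CPM in BARD1-expressing libraries. BARD1-expressing 3 lay only just above control 3. ERN1 had a log2 fold change of 0.24 ± 0.090 (edgeR adjusted p = 0.0493), and the adjusted p ranged from 0.0314 to 0.219 over the 12 alternatives, 0.0959 with DESeq2.

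The other sensor genes overlapped between the groups. ATF6 was at 50.2 to 59.9 CPM in control and 49.3 to 53.4 CPM in BARD1-expressing libraries, with a log2 fold change of -0.09 (95% interval -0.24 to 0.06). EIF2AK3, the PERK gene, was at 13.9 to 14.03 CPM and 12.5 to 16.4 CPM, with a log2 fold change of 0.03 (95% interval -0.19 to 0.25). The control libraries of EIF2AK3 were close together and the BARD1-expressing ones fell on both sides of them.

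Of the 8 Hsp70 and Hsp90 chaperones and cofactors, HSPA5 and MANF rose and the other 6 were not called. HSPA5 (ENSG00000044574, chromosome 9, 125234853 to 125241330), whose product BiP is the Hsp70 of the ER and holds the sensors inactive, was at 657, 713 and 713 CPM in control libraries and 816, 735 and 748 CPM in BARD1-expressing libraries. The first control was the lowest and the first BARD1-expressing library the highest. HSPA5 had a log2 fold change of 0.14 ± 0.051 (edgeR adjusted p = 0.0400), a 1.10-fold difference. Over the alternatives it ranged from 0.09 to 0.17, with adjusted p from 0.0235 to 0.246, and it was 0.10 without control 1 and 0.09 without BARD1-expressing 1.

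MANF (ENSG00000145050, chromosome 3, 51385047 to 51389397), a small secreted protein that binds BiP, was at 45.5, 44.2 and 47.8 CPM in control and 51.8, 57.7 and 51.6 CPM in BARD1-expressing libraries. The second BARD1-expressing library was the highest. MANF had a log2 fold change of 0.23 ± 0.069 (edgeR adjusted p = 0.0128). The call was lost without control 1 (0.0507), control 2 (0.0841) or BARD1-expressing 2 (0.0921).

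HSP90B1, which encodes the Hsp90 of the ER (GRP94), was at 875, 949 and 984 CPM in control and 1025, 870 and 936 CPM in BARD1-expressing libraries. The groups overlapped throughout, and the interval of the difference was narrow (log2 fold change 0.01, 95% interval -0.11 to 0.13). HYOU1, an exchange factor for BiP, was higher in each BARD1-expressing library (142 to 152 CPM) than in each control library (132 to 142 CPM). Its log2 fold change of 0.12 ± 0.053 was not called (edgeR adjusted p = 0.100). HYOU1 was called in 1 of 12 alternatives, without BARD1-expressing 1 (0.14, edgeR adjusted p = 0.0471), and was at 0.09 without control 1. DNAJB9, the BiP cochaperone ERdj4, had few reads (3.85 to 5.54 CPM in control and 5.70 to 6.57 CPM in BARD1-expressing libraries) and the widest interval of the 8 (0.39, 95% interval 0.05 to 0.72, edgeR adjusted p = 0.0772). DNAJB9 was called in 1 of 12 alternatives, without control 3 (0.52, edgeR adjusted p = 0.0305), and was at 0.26 without control 2. DNAJC3, DNAJB11 and SDF2L1, the other BiP cofactors, had log2 fold changes of 0.10, -0.02 and 0.03, none of them called.

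None of the 4 genes of the lectin chaperone cycle was called. Calnexin and calreticulin hold glycoproteins by their sugar, PDIA3 forms their disulfides and UGGT1 marks unfinished ones for another round. CANX, the most abundant of the 34 per length, was at 1744, 1886 and 1915 CPM in control and 1890, 1650 and 1791 CPM in BARD1-expressing libraries, a log2 fold change of -0.06 (95% interval -0.17 to 0.05). CALR was at 686, 709 and 691 CPM in control and 644, 685 and 660 CPM in BARD1-expressing libraries, a log2 fold change of -0.07 (95% interval -0.16 to 0.03). The groups did not overlap at CALR, by a narrow margin between control 1 and BARD1-expressing 2, and the test did not call it (edgeR adjusted p = 0.300).

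PDIA3 was at 380 to 418 CPM in control and 386 to 423 CPM in BARD1-expressing libraries (log2 fold change -0.01). UGGT1 was at 159 to 175 CPM in control and 178 to 181 CPM in BARD1-expressing libraries, a log2 fold change of 0.11 (95% interval 0.01 to 0.22) that did not pass the adjusted test (edgeR adjusted p = 0.108).

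In disulfide formation the 2 ER oxidases moved in opposite directions, while the disulfide isomerases P4HB, PDIA4, PDIA5 and PDIA6 were not called. ERO1A and ERO1B encode flavoproteins that reoxidise PDI. ERO1A (ENSG00000197930, chromosome 14, 52639916 to 52695900), the widely expressed form and a known hypoxia gene, was at 106, 113 and 120 CPM in control and 101, 92.95 and 96.2 CPM in BARD1-expressing libraries. Every BARD1-expressing library was below every control. Its log2 fold change was -0.22 ± 0.059 (edgeR adjusted p = 0.00550).

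ERO1B (ENSG00000086619, chromosome 1, 236215555 to 236281985), the form known from pancreas and other secretory tissue, was at 7.67, 8.67 and 9.36 CPM in control and 11.6, 10.3 and 11.9 CPM in BARD1-expressing libraries. Its log2 fold change was 0.39 ± 0.121 (edgeR adjusted p = 0.0179), a call lost without control 1 (0.103) or BARD1-expressing 3 (0.0923). Per kilobase of exon, the level of ERO1B was 0.102, 0.108 and 0.110 times that of ERO1A in control libraries and 0.162, 0.156 and 0.174 times in BARD1-expressing libraries. The ratio was thus higher in each BARD1-expressing library, with ERO1A remaining the more abundant of the pair in all 6.

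The isomerases had log2 fold changes between 0.01 and 0.16. P4HB, the founding isomerase PDI, was at 411 to 431 CPM in control and 434 to 439 CPM in BARD1-expressing libraries, a log2 fold change of 0.05 (95% interval -0.05 to 0.14). PDIA4 and PDIA5 had log2 fold changes of 0.10 and 0.16 and PDIA6 of 0.01, none of them called. PDIA5 was called in 1 of 12 alternatives, without control 1 (0.26, edgeR adjusted p = 0.0487), and was at 0.11 without control 3. CRELD2, a small ER stress-induced protein with isomerase activity, was at 17.1 to 20.3 CPM in control and 14.7 to 18.8 CPM in BARD1-expressing libraries (log2 fold change -0.13, 95% interval -0.34 to 0.09).

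Of 9 genes of ER-associated degradation (ERAD), EDEM1 and SEL1L rose and 7 were not called. EDEM1 (ENSG00000134109, chromosome 3, 5187646 to 5219957) trims mannose from misfolded glycoproteins and is a known XBP1 target. It was at 39.9, 42.7 and 39.9 CPM in control and 52.8, 57.0 and 55.9 CPM in BARD1-expressing libraries. The groups were far apart relative to their spread, and the log2 fold change of 0.44 ± 0.068 (1.36-fold, edgeR adjusted p = 2.07e-05) was the largest of the 34.

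SEL1L (ENSG00000071537, chromosome 14, 81471549 to 81533861), the scaffold of the HRD1 ubiquitin ligase, was at 80.2, 88.8 and 86.2 CPM in control and 104, 97.2 and 108 CPM in BARD1-expressing libraries, again without overlap. Its log2 fold change was 0.28 ± 0.060 (edgeR adjusted p = 0.00107). SYVN1, the HRD1 ligase itself, was at 51.9 to 58.96 CPM in control and 54.5 to 56.5 CPM in BARD1-expressing libraries (log2 fold change 0.03, 95% interval -0.11 to 0.17).

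HERPUD1, a stress-induced partner of HRD1 that carries an ERSE-II, was at 56.7 to 61.5 CPM in control and 56.1 to 57.3 CPM in BARD1-expressing libraries (log2 fold change -0.07, 95% interval -0.20 to 0.06). EDEM2, a paralog of EDEM1, was at 15.3 to 18.7 CPM and 13.6 to 16.8 CPM (log2 fold change -0.06, 95% interval -0.28 to 0.17). OS9, a lectin that delivers glycoproteins to SEL1L, had a log2 fold change of 0.15 that was not called (edgeR adjusted p = 0.124). OS9 was called in 1 of 12 alternatives, without BARD1-expressing 1 (0.21, edgeR adjusted p = 0.00889), and was at 0.05 without BARD1-expressing 2. The derlins DERL1 and DERL2, membrane proteins of the exit channel, had log2 fold changes of 0.05 and -0.06. DERL3 had 19 to 38 reads per library, and its interval (-0.21 to 1.07) excludes neither a fall nor a 2-fold rise.

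Of the remaining 2 genes, WFS1 rose and SEC61B was not called. WFS1 (ENSG00000109501, chromosome 4, 6269849 to 6303265) encodes wolframin, an ER membrane protein of calcium handling whose loss causes Wolfram syndrome. It was at 40.5, 47.3 and 43.5 CPM in control and 52.3, 54.6 and 50.8 CPM in BARD1-expressing libraries, with a log2 fold change of 0.27 ± 0.071 (edgeR adjusted p = 0.00628), and the call was lost without control 1 (0.0634). SEC61B, a subunit of the channel through which proteins enter the ER, was at 60.5 to 64.5 CPM in control and 55.8 to 69.8 CPM in BARD1-expressing libraries (log2 fold change 0.02, 95% interval -0.13 to 0.17).

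Per kilobase of exon, levels in control cells spanned from 296 ± 14.7 CPM per kb for CANX to 0.287 ± 0.082 CPM per kb for DERL3 (SD, n = 3). The value of DERL3 is uncertain, because 77.0% of its exon bases are shared with SMARCB1. CANX was followed by CALR (256 ± 4.45), HSP90B1 (199 ± 11.9) and HSPA5 (178 ± 8.35). The control libraries of these 4 genes did not overlap between genes. The 5 genes at the low end were EIF2AK3 (2.56 ± 0.015), ERN1 (1.84 ± 0.084), DNAJB9 (1.65 ± 0.297), ERO1B (1.60 ± 0.159) and DERL3, of which DNAJB9 overlapped both ERN1 and ERO1B between control libraries. XBP1 stood at 16.3 ± 0.924 CPM per kb in control and 21.0 ± 0.832 in BARD1-expressing cells. The summed level of the 34 genes overlapped between the groups, at 6666, 7095 and 7158 CPM in control libraries and 7308, 6861 and 7062 CPM in BARD1-expressing libraries. By role, the summed levels also overlapped for the Hsp70 and Hsp90 genes (1834 to 2009 CPM in control and 1944 to 2168 CPM in BARD1-expressing libraries), the lectin cycle (2969 to 3198 and 2904 to 3136 CPM) and disulfide formation (1043 to 1098 and 1082 to 1112 CPM). They did not overlap for the sensors with XBP1 (133 to 141 and 151 to 155 CPM), for ERAD (582 to 612 and 632 to 656 CPM) and, by a narrow margin, for WFS1 with SEC61B (104.99 to 108.04 and 108.06 to 124.46 CPM). These sums are not separate from the single genes, because they include the called XBP1 and ERN1, EDEM1 and SEL1L, and WFS1. Mean levels in control and BARD1-expressing libraries were 49.4 and 63.7 CPM for XBP1 and 40.8 and 55.2 CPM for EDEM1. They were 85.1 and 103 CPM for SEL1L and 43.8 and 52.6 CPM for WFS1. The 40.9% of all tested genes at which the groups did not overlap is a share of single genes. No like share was computed for sums, and no test was made of them.

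**Figure D3:**
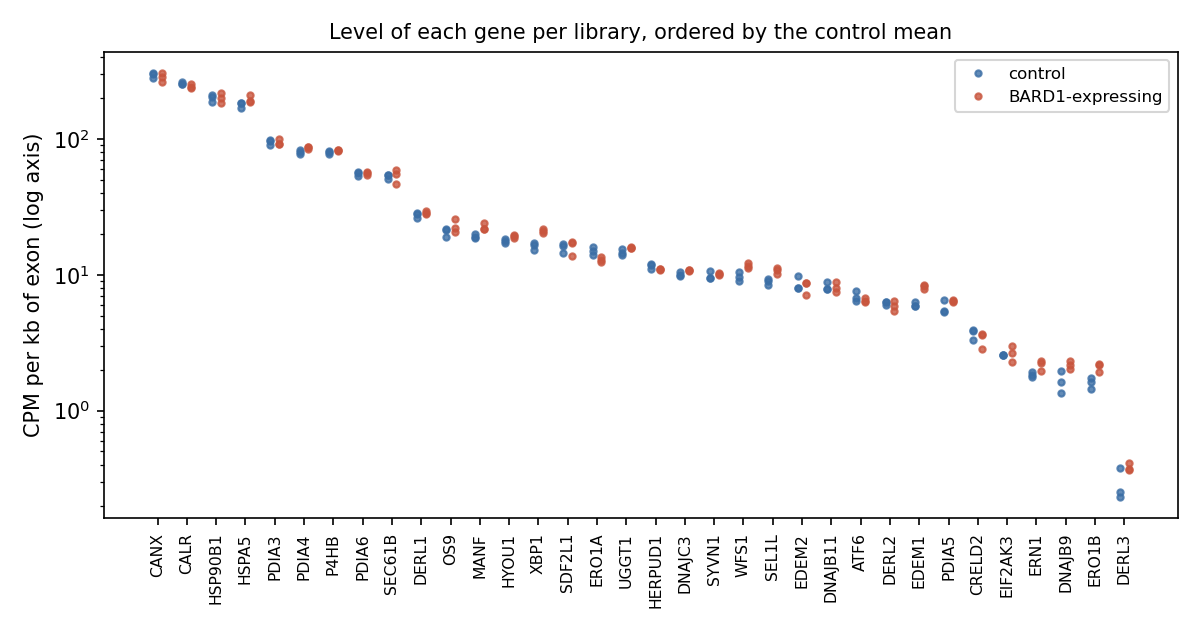
Level of each of the 34 genes in CPM per kilobase of exon (log axis), one point per library, blue for control and red for BARD1-expressing cells, ordered by the control mean. Levels fall from about 296 for CANX to 0.287 for DERL3, whose count is uncertain. The groups lie close together for the abundant chaperones at the left.

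Genes that rose were found with and without an exact match of the promoter element in the searched window. Among the 8 members with an ERSE, HSPA5, XBP1 and ERO1B rose and CALR, CANX, CRELD2, HSP90B1 and PDIA6 were not called, with a median log2 fold change of 0.01 and a range from -0.13 to 0.39. With the 3 members that hold an ERSE-II the set has 11 genes, of which 3 rose. Among the 20 members whose promoter held neither sequence, 5 rose (EDEM1, SEL1L, WFS1, ERN1 and MANF), ERO1A fell, and the median was 0.10. The counts are a description of these windows and no test was made between them.

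Positions and exon lengths of all 34 genes in the deposited table equal those of GENCODE release 29. Exon bases of 9 of them are shared with a neighbouring gene of at least 100 counts, and none of those 9 was called. The widest overlap was that of DERL3, 77.0% of whose exon bases lie in SMARCB1 on the other strand, and because the labels do not say whether counting used strand, the count of DERL3 is uncertain. PDIA5 shares 12.2% of its exon bases with SEC22A on the same strand. SYVN1 shares 7.24% with FAU on the same strand, a gene with 31729 reads over the 6 libraries, and 6.48% with MRPL49 on the other strand. What this does to the counts of PDIA5 and SYVN1 was not tested. Among processed copies, PDIA3P1 held 1900 reads over the 6 libraries, 3.93% of those of PDIA3, and XBP1P1 held 20 reads, 0.298% of those of XBP1.

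Lists of related genes held larger single differences than the 34. The counts by list stand beside 16.5% higher and 12.4% lower among all tested genes. No list was tested as a set. In a list of 14 genes of the PERK branch and the integrated stress response, 6 of 13 tested rose and none fell, with a median log2 fold change of 0.21. TRIB3, a pseudokinase induced by ATF4 and CHOP, rose by 0.83 ± 0.097 on the log2 scale, DDIT4, an inhibitor of mTORC1, by 1.14 ± 0.257, and CHAC1, which degrades glutathione, by 0.62 ± 0.157 (edgeR adjusted p = 3.78e-07, 0.00141 and 0.00413). The mRNAs of ATF4 itself (-0.12 ± 0.050) and of CHOP, gene DDIT3 (0.28 ± 0.150), were not called (edgeR adjusted p = 0.0802 and 0.174), and these 2 genes were named after their values were seen. Amino acid shortage is also known to induce genes of this list.

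Among 11 tested genes of sensor processing and related factors, 3 rose and none fell. CREB3L2 and CREB3L1 encode transcription factors that, like ATF6, sit in the ER membrane and are cut in the Golgi, and they are known for raising secretory and collagen genes. CREB3L2 rose from 64.7 ± 2.82 to 131 ± 4.42 CPM (SD, n = 3 each, log2 fold change 1.02 ± 0.057, edgeR adjusted p = 2.36e-12) and CREB3L1 from 42.5 ± 3.31 to 66.0 ± 7.31 CPM (0.64 ± 0.079, edgeR adjusted p = 9.26e-07). Both estimates were larger than that of XBP1. MBTPS1, the protease that makes the first cut in ATF6, rose by 0.15 ± 0.055 (edgeR adjusted p = 0.0420), a call that held in 1 of 12 alternatives.

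Of 26 tested ER redox and folding genes outside the 34, 5 rose and 3 fell. FKBP9, a prolyl isomerase, rose by 0.77 ± 0.056 and SIL1, an exchange factor for BiP on chromosome 5, by 0.61 ± 0.091, whereas TMX3, a membrane thioredoxin on chromosome 18, fell by 0.93 on the log2 scale (198 ± 9.27 to 105 ± 10.2 CPM, SD, n = 3 each). Of 21 genes listed for ERAD outside the 34, 6 rose and 2 fell. SEL1L3, in this list as a relative of SEL1L and not as an established ERAD factor, rose from 24.3 ± 2.14 CPM in control to 50.9 ± 1.27 CPM (mean ± SD over 3 libraries each). The ubiquitin-conjugating enzyme UBE2J1 rose by 0.25 ± 0.050 on the log2 scale.

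Of 32 genes of the translocon, signal peptide cleavage and glycan transfer, 7 rose and 3 fell. GANAB, which encodes the catalytic subunit of glucosidase II, rose by 0.22 ± 0.051, SSR3, a translocon-associated protein, fell from 769 ± 26.9 to 673 ± 17.8 CPM, and the signal peptidase subunit SEC11C, on chromosome 18, from 23.7 ± 0.503 to 11.4 ± 0.428 CPM (SD, n = 3 each). Of 22 genes of transport between ER and Golgi, 9 rose and 2 fell, with a median log2 fold change of 0.12. The COPII genes SEC24A (0.77 ± 0.075) and SAR1B (0.72 ± 0.067) lie on chromosome 5, and the cargo receptor LMAN1 (-0.75 ± 0.056) lies on chromosome 18. KDELR1 (0.20 ± 0.050) and KDELR2 (0.15 ± 0.049), receptors that return BiP and other residents to the ER, rose as well and were named after their values were seen.

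Heat shock proteins of the cytosol and mitochondria served as a comparison outside the ER. Of 16 tested, 2 rose and 3 fell, with a median log2 fold change of -0.08. The cytosolic HSP90AB1 fell from 3566 ± 110 to 2861 ± 124 CPM (SD, n = 3 each), and the 2 that rose, the mitochondrial HSPA9 (0.45 ± 0.049) and the cochaperone HSPA4 (0.35 ± 0.056), lie on chromosome 5. Over the 7 lists together, with 13, 11, 26, 21, 32, 22 and 16 genes tested in the order given, 38 genes rose and 13 fell. Without the genes of chromosomes 18 and 5, 32 rose and 10 fell of 128 tested. Among all tested genes 16.5% were called higher and 12.4% lower. Without BARD1-expressing 3 the 38 and 13 became 23 and 8, without control 1 24 and 12, and without control 2 26 and 8.

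**Figure D4:**
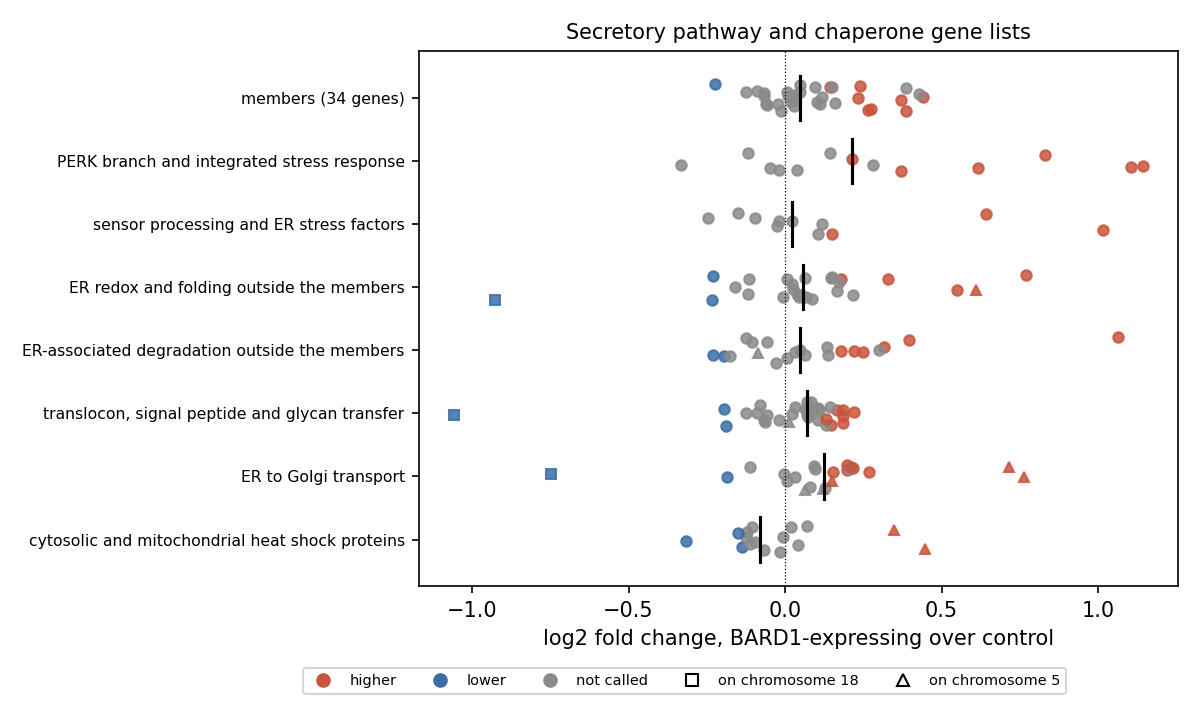
Log2 fold change of the 34 members and of the tested genes of 7 further lists, 1 point per gene (red higher, blue lower, grey not called, squares on chromosome 18, triangles on chromosome 5), with a black line at each list's median. The members lie between -0.22 and 0.44, while genes such as CREB3L2, SEL1L3 and DDIT4 lie above 1 and SEC11C below -1.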

How the data were processed

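The authors deposited raw read counts per gene for 6 libraries, whole numbers with a different total in each. Per the submitters' processing notes, the tools were DESeq2 1.20.0, HISAT2 2.0.5 and featureCounts 1.5.0-p3 and the build GRCh38 (hg38), with no roles or options. Per the labels' protocols, poly-T beads selected mRNA, and directional as well as non-directional libraries are named. Columns were matched to libraries by their description. Counts were tested with edgeR 4.0.16 in R 4.3.3 (filterByExpr, TMM scaling, robust quasi-likelihood F test on group, 4 residual degrees of freedom) over 15400 genes, with SE and 95% intervals from the same fit. The pipeline was tested on simulated data. Titles number biological replicates, but separate cultures are not stated; p-values therefore cover only the spread among these 6 libraries, which may be technical. No library duplicated another (chi-square per degree of freedom 3.41 to 8.11). The limit behind a count of 0 is 3 counts, or 0.124 to 0.236 CPM; this and all precision from depth cover counting error only.

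The 34 members and all gene lists were chosen with earlier results of these data known. All members are named, and of each further list up to 3 called genes with the smallest p, except 1 gene that is not reported here. Alternatives were DESeq2 1.42.0, relative log expression and upper quartile scaling, no low-count filter, a replicate block, protein-coding nuclear genes only, and each library left out. Levels per length use the deposited gene length. The search for ERSE-II and for the unfolded protein response element, and the counts without chromosomes 18 and 5, were added after seeing the data.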

Additional observations from a re-analysis of the deposited data

How the results depend on the processing

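The number of members that rose was 8, 6 in each of the 6 alternatives with all libraries (DESeq2, both scalings, no filter, replicate block, protein-coding nuclear genes only), and 4 to 9 with 1 library left out; 1 fell in all 12. The median log2 fold change of members (0.0479) was 0.0308 with upper quartile scaling, 0.0342 without the filter, 0.0321 over protein-coding nuclear genes and 0.0452 to 0.0877 with 1 library left out. Over all genes of the main test the median was -0.0027. It was -0.0195 with upper quartile scaling, -0.0159 without the filter and -0.0041 over the protein-coding nuclear ones. Called genes numbered 3317 to 4755 in all, and the further lists gave 23 to 39 higher and 8 to 15 lower, with 1 library left out. In the alternatives that kept all libraries, the further lists gave 31 to 35 higher and 9 to 18 lower. The cause was not tested. No called value changed sign. Same-numbered libraries did not deviate together (correlations -0.11, -0.03 and -0.01 over 15400 genes) and none correlated best with its own number. With 3 libraries per group this cannot exclude a shared day or culture, which the labels do not state. With the replicate block 6 members rose and 1 fell, and 3990 genes were called. HSPA5 and ERN1 lost their calls there (edgeR adjusted p = 0.102 and 0.0816). Changes of about 1.1-fold, as at HSPA5, are near the limit of 3 against 3 libraries, and DERL3 (19 to 38 reads) is limited by depth.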

Other observations

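Outside the 34 genes, 17 more genes held an ERSE in a RefSeq promoter, of which 8 had enough counts to be tested. Of these only SYNPO, which encodes the actin-binding protein synaptopodin, was called (log2 fold change 0.40 ± 0.116, edgeR adjusted p = 0.0110). FICD, which encodes the enzyme that inactivates BiP by AMPylation, had a log2 fold change of 0.31 ± 0.168 (edgeR adjusted p = 0.185) and SERP1, a translocon-associated protein, of -0.01 ± 0.053 (edgeR adjusted p = 0.876), neither called. ALG12, which encodes a mannosyltransferase of glycan synthesis, shares exon bases with CRELD2 on the other strand, and its log2 fold change of -0.28 ± 0.121 was not called (edgeR adjusted p = 0.0919).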
